A study of Rattus rattus with 8 samples.

Results

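The genes described here are 10 acute phase genes of the liver, namely Lcn2, Orm1, A2m, Hp, Hpx, Hamp, Lbp, Crp, Itih3 and Socs3. They were chosen by name and matched exactly to the gene symbols of the array's probe table, where all 10 were found among 16945 symbols, on 29 array features (printed probe spots). Livers came from 8 male rats of the WH strain, which the labels give as Rattus rattus, with 1 single-colour Agilent array per animal and no pooling. For 7 days, 4 control rats ate diet with 0 ppm and 4 rats ate diet with 2500 ppm sodium phenobarbital (NaPB). Phenobarbital is a sedative that induces drug-metabolising enzymes in liver through the receptor CAR. No other treatment or allele is given for either group, and no source used here gives their age.

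The acute phase response is the change in plasma protein synthesis that hepatocytes make during infection, injury or inflammation. Interleukin 6 (IL-6) binds its receptor Il6r and the shared subunit Il6st, the kinase Jak1 then activates the transcription factor Stat3, and Socs3 shuts the pathway off again. Interleukin 1 and tumour necrosis factor act beside it through NF-kB and the C/EBP factors. Genes whose products rise in plasma are called positive acute phase genes, and those whose products decline, such as albumin, negative ones.

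Levels are given as scaled intensity, in which 1 is the 75th percentile of the named features on the same array, and a gene's level is the geometric mean over its features. Levels of different genes are not compared, since probes differ in brightness. Differences are log2 values, NaPB minus control, with the standard error of the difference (SE, n = 4 livers per group). Genes were called at an adjusted p below 0.05 (limma, Benjamini-Hochberg), fitted and adjusted over all 10944 genes that lay above a floor of 0.03.

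The exposure marker Cyp2b2, a P450 that phenobarbital induces, lay between 4.41 and 6.49 in controls and between 111 and 138 with NaPB. Of all tested genes 10.5% were called, 6.16% higher and 4.29% lower, and in 19.1% the groups did not overlap. The higher genes made up 58.9% of the called ones, or 41.3% with arrays brought to the same median. Hepatocyte markers were present in all livers, with a summed level of 1277 to 1454 in controls and 1080 to 1280 with NaPB. Of the 8 hepatocyte markers Hnf4a rose and Apoc3 and Cps1 fell. Apoc3 made the largest difference to the sum, at 268.0 to 326 in controls and 187 to 213 with NaPB, while Alb and Ttr did not pass (adjusted p = 0.3 and 0.574, limma). Summed levels of 11 macrophage markers were 61.7 to 72.0 and 56.9 to 74.4. Of these markers 1 passed, Cd163, which was lower at -0.57 (adjusted p = 0.013, limma). The 5 bile duct markers summed to 0.365 to 0.451 and 0.855 to 1.03, carried by Epcam. The 5 red cell genes summed to 53.5 to 58.2 and 28.5 to 49.9, carried by Hba-a2 and Hbb. None of the 5 passed, the lowest adjusted p being 0.0521 for Alas2 (limma). The 9 stellate cell markers summed to 8.49 to 12.4 in controls and 6.64 to 7.97 with NaPB, and 3 of them fell. The 6 endothelial markers summed to 15.1 to 16.8 and 11.3 to 13.4, carried by Kdr at 12.1 to 13.7 and 8.61 to 10.2. The 10 lymphocyte markers summed to 0.810 to 0.843 and 0.785 to 0.909. Of these 1 passed, the dim Cd8a, which was lower at -0.58 (adjusted p = 0.049, limma). The part of these shifts in the results below was not tested.

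Among the 10 acute phase genes, Lcn2 and Orm1 rose with NaPB and Itih3 fell, while the other 7 did not pass. The count of 3 in 10, or 30%, stands beside the 10.5% of all tested genes. Their median log2 difference was 0.04 beside 0.0015 for all tested genes. The genes were chosen with earlier results of these data known, so these shares are a description and no test of the set. In the same 3 genes, and in none of the other 7, the values of the 2 diets did not overlap, beside 19.1% of all tested genes. For Orm1 the gap was very small, with NaPB liver 4 at 80.27 and control liver 2 at 80.23. Every one of the 10 genes was above the floor on all features in all 8 livers, so none was lost to the filter on dim values. All features of a gene cite the same RefSeq transcript. Genomic positions were not used here, because the reference gene table is of an assembly of Rattus rattus and the sources used here name no build for the array design.

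**Figure D1:**
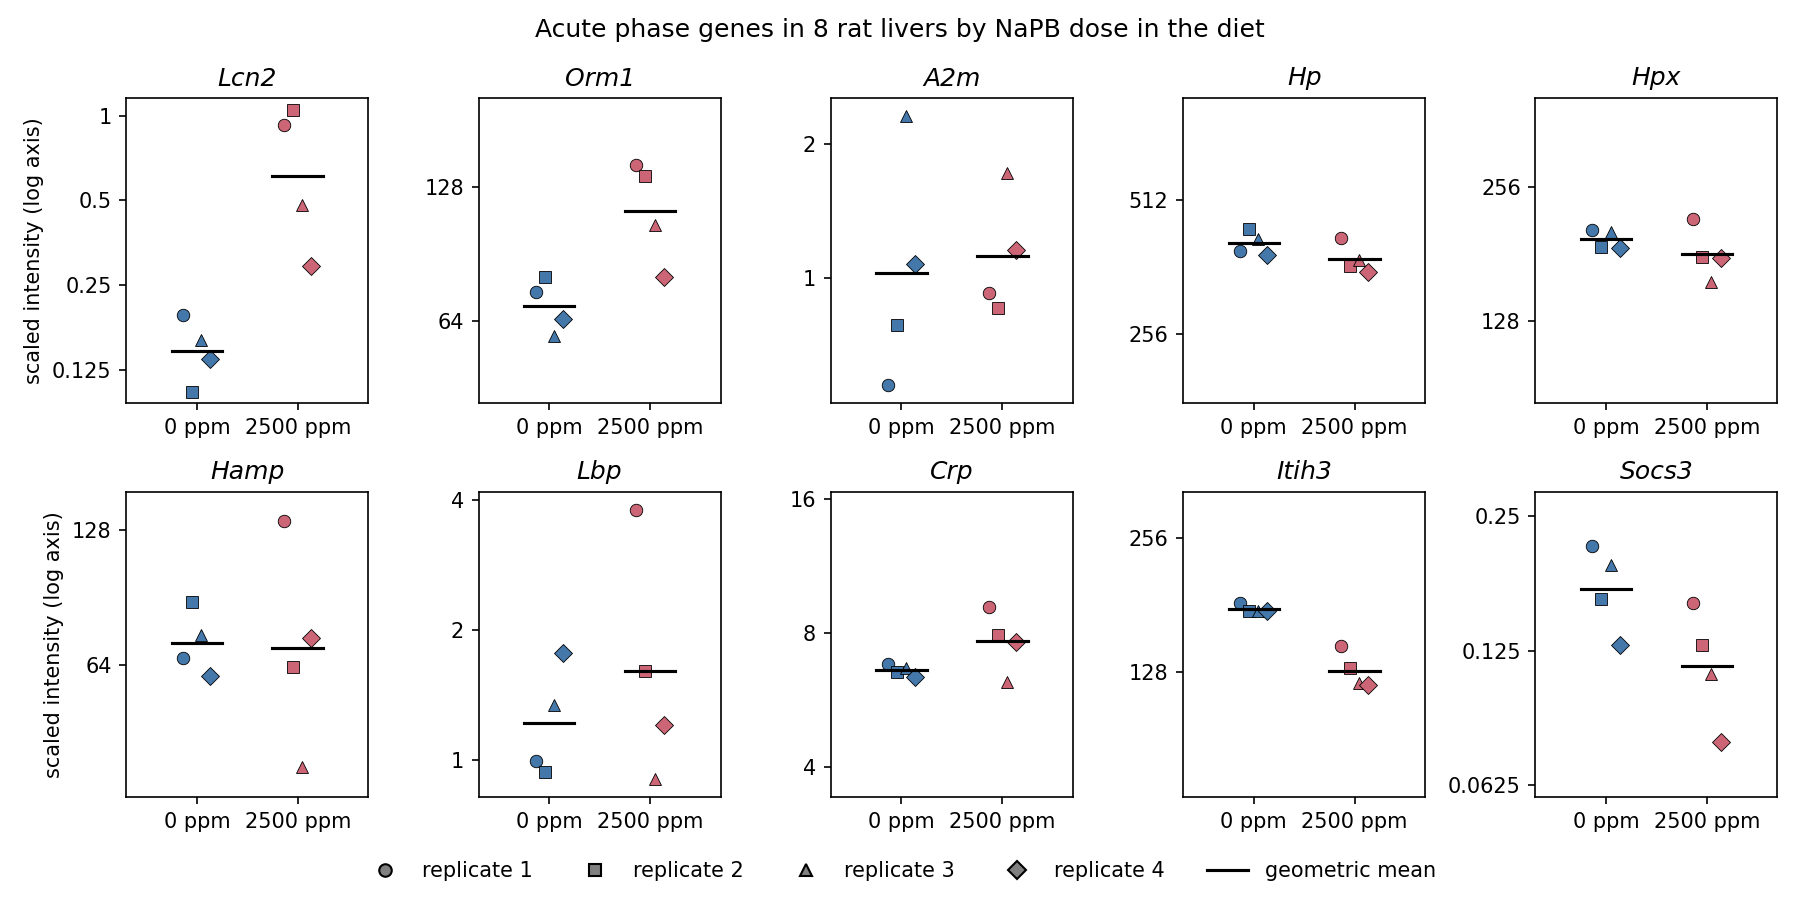
Scaled intensity (log axis, at least a 4.84-fold span in each panel) of the 10 acute phase genes in each of 8 livers, by NaPB dose in the diet. Symbols mark the replicate number, which names an animal and does not pair animals across groups, and bars are geometric means over 4 livers. Lcn2, Orm1 and Itih3 are the genes whose groups do not overlap, Orm1 only barely, with NaPB liver 4 at 80.27 and control liver 2 at 80.23.

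Lcn2 (NM_130741) encodes lipocalin 2, a secreted protein that binds bacterial iron carriers and is made by hepatocytes and neutrophils. Its scaled intensity was 0.195, 0.105, 0.159 and 0.137 in control livers 1 to 4 and 0.927, 1.05, 0.483 and 0.291 in NaPB livers 1 to 4. All NaPB livers lay above all controls, with livers 1 and 2 well above livers 3 and 4. The mean was 4.19-fold higher, a log2 change of 2.07 ± 0.39 (adjusted p = 0.0138, limma), which was larger than 99.5% of all absolute differences. Its 2 features gave 2.01 and 2.13 and both passed. Without any single array the log2 change stayed between 1.80 and 2.42 and the adjusted p at or under 0.0423. The call was lost when every named gene was tested, floor values included (adjusted p = 0.0638).

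Since neutrophils also store this protein, their markers were read beside it. Of 11 named neutrophil markers 5 were tested and none was called in limma, while 1, Mpo, which lay above the floor in 3 NaPB livers only and at most at 0.0456, was higher at an unadjusted p under 0.05. Their median log2 difference was -0.31. The summed level was 0.818 to 1.19 in controls and 0.643 to 1.49 with NaPB, so the groups overlapped, and Mmp8 and Ngp lay at the floor in all 8 livers. S100a8, a major neutrophil protein, was at 0.134 to 0.246 in controls and 0.0764 to 0.237 with NaPB. Some markers lay above the floor in NaPB livers 1 or 2 alone, the livers with the highest Lcn2. The chemokine receptor gene Cxcr2 was at 0.0542 and 0.0555 in these livers, and the granule protease gene Elane, the defensin gene Np4 and the growth factor receptor gene Csf3r were at 0.192, 0.0800 and 0.0315 in NaPB liver 1. All other livers were at the floor for these genes, and the part of neutrophils in the Lcn2 difference was not tested.

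Orm1 (NM_053288) encodes alpha-1-acid glycoprotein, a plasma carrier of basic drugs. Its level was 74.1, 80.2, 59.1 and 64.7 in controls and 143, 135.4, 105 and 80.3 in NaPB livers 1 to 4. NaPB livers 1 to 3 lay clearly above the controls, and liver 4 was level with the highest control. The mean was 1.64-fold higher, a log2 change of 0.71 ± 0.19 (adjusted p = 0.0456, limma). Of its 2 features, at 0.70 and 0.72, the first passed over all features tested (adjusted p = 0.0487) and the other did not (0.0507). On the first feature the groups overlapped, with NaPB liver 4 at 82.8 and control liver 2 at 83.5. The call of the gene was lost without any 1 array other than NaPB replicate 4, with adjusted p up to 0.103, and without that array the change was 0.87 (adjusted p = 0.0149). It was also lost with arrays at the same median (adjusted p = 0.0502), with the brightest feature alone (0.0549) and with every named gene tested (0.137).

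A2m and Itih3 belong to plasma protease inhibitor families. A2m (NM_012488) encodes alpha-2-macroglobulin, which traps proteases and is a strongly inducible acute phase protein of the rat. Its level was 0.576, 0.786, 2.31 and 1.07 in controls and 0.925, 0.859, 1.72 and 1.16 with NaPB. The highest value of all 8 was that of control liver 3, the lowest that of control liver 1, and the NaPB livers fell within the control range. The difference was 0.12 ± 0.41 (95% confidence interval -0.80 to 1.04, adjusted p = 0.877). Control livers spanned 4.01-fold, the widest range of the 10 genes among controls, with an SD of 0.86 on the log2 scale. That SD exceeded the control SD of 98.9% of tested genes. The sign of the difference turned without control replicate 1 (-0.16), control replicate 2 (-0.0079) or NaPB replicate 3 (-0.084).

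Itih3 (NM_017351) encodes a heavy chain of inter-alpha-trypsin inhibitor, which is linked to hyaluronan in the matrix. Controls were at 183, 176, 176 and 176, and NaPB livers at 146, 131, 121 and 119. Controls hardly differed, and every NaPB liver lay below all of them. The log2 value fell by 0.46 ± 0.08 to 0.73 times the control level (adjusted p = 0.0106, limma). Both features passed, at -0.48 and -0.44, and the gene passed under every alternative run, with log2 values between -0.52 and -0.42. The summed hepatocyte markers were at 1080 to 1280 with NaPB beside 1277 to 1454 in controls, a shift to which Apoc3, Serpina1 and Fga contributed most. Of these Apoc3 passed (adjusted p = 0.00579) and Serpina1 and Fga did not (0.0804 and 0.128, limma). Serpina1 and Fga are also counted below among the other positive acute phase genes, and the markers Alb and Ttr among the negative ones. The sum is therefore no measure of hepatocyte content apart from acute phase genes. In whole liver RNA fewer cells of a type and less RNA per cell cannot be told apart.

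Hp and Hpx clear free hemoglobin and free heme from plasma. Hp (NM_012582), haptoglobin, was at 392, 439.6, 418 and 386 in controls and 421, 364, 375 and 353 with NaPB. The groups overlapped, and the difference was -0.11 ± 0.08 (95% confidence interval -0.30 to 0.07, adjusted p = 0.417). Its 2 features were the 2 brightest named features on all 8 arrays, with deposited values of 368 to 484. Flags for saturated spots were not used here, so whether the top of the scale was compressed was not tested. Quantile normalization gives the brightest spots of all arrays the same values, and under it the difference was 0.

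Hpx (NM_053318), hemopexin, had a single feature, at 206, 187, 203 and 187 in controls and 217, 178, 157 and 178 with NaPB. NaPB liver 1 was the highest of all 8 and the other NaPB livers were the lowest. The difference was -0.11 ± 0.10 (95% confidence interval -0.35 to 0.12, adjusted p = 0.538).

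Hamp (NM_053469) encodes hepcidin, the hormone that blocks iron export by closing ferroportin, and IL-6 and bone morphogenetic proteins induce it. Controls were at 66.3, 88.5, 74.7 and 60.3, and NaPB livers at 134.1, 63.1, 37.7 and 73.6. NaPB liver 1 lay above and NaPB liver 3 below all controls, a 3.56-fold span beside 1.47-fold among controls. The means nearly coincided, at -0.04 ± 0.33 (95% confidence interval -0.80 to 0.71, adjusted p = 0.951). All 10 features agreed on this, with differences of -0.12 to 0.07. Within an array they scattered with an SD of 0.086 (log2) once each feature's mean offset was taken out, against 0.75 between NaPB livers. The sign turned without NaPB replicate 3 (0.25), NaPB replicate 2 (0.0044) or control replicate 2 (0.059).

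**Figure D2:**
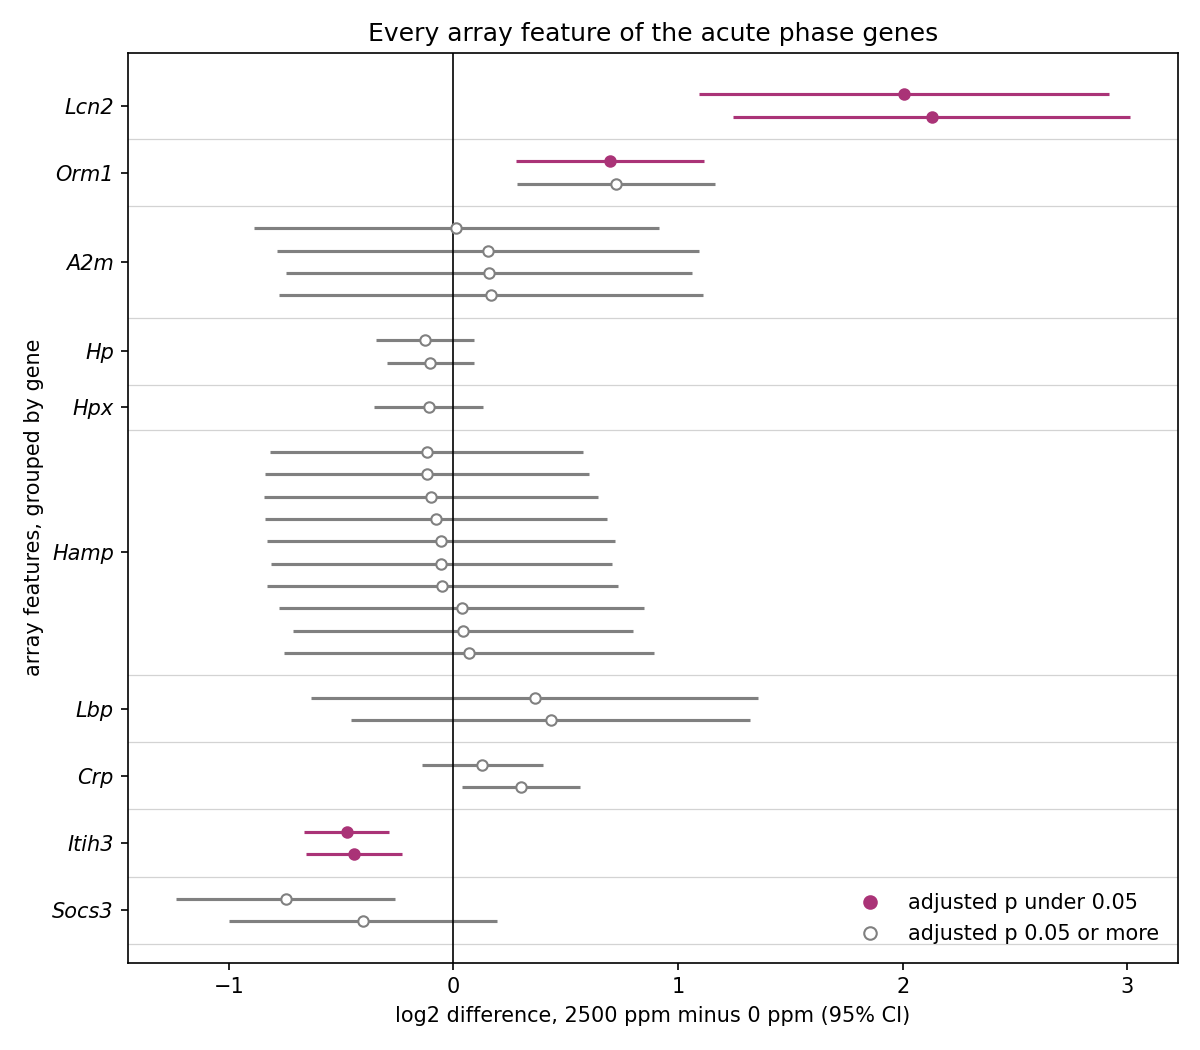
Log2 difference (2500 ppm minus 0 ppm, horizontal axis) of each of the 29 features of the 10 genes, with 95% confidence intervals from limma over all features. Filled symbols passed an adjusted p of 0.05: both features of Lcn2, 1 of 2 of Orm1 and both of Itih3. The 10 features of Hamp all lie between -0.12 and 0.07.

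At the level of single features, 5 of the 29 passed, 3 higher and 2 lower, beside 9.69% of the 30504 features tested, 5.73% higher and 3.97% lower. They belonged to Lcn2, Orm1 and Itih3. The count was 3 without control replicate 1 or 3 and 2 without control replicate 2. Over all genes 698, 765 and 625 were then called, in place of 1144. Features of a gene read the same RNA on the same array, so they are no replicates.

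Lbp and Crp recognise microbial surfaces. Lbp (NM_017208), lipopolysaccharide binding protein, hands bacterial lipopolysaccharide to Cd14 and Tlr4. Controls were at 0.995, 0.938, 1.34 and 1.76, and NaPB livers at 3.80, 1.60, 0.903 and 1.21. NaPB liver 1 lay far above the highest control, and the other 3 lay within or just below the control range. The difference was 0.40 ± 0.41 (95% confidence interval -0.54 to 1.34, adjusted p = 0.579). It rested on NaPB liver 1, without which it was -0.017.

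Crp (NM_017096), C-reactive protein, is a pentraxin that binds phosphocholine and circulates in healthy rats too. Controls were at 6.81, 6.55, 6.69 and 6.39, and NaPB livers at 9.16, 7.94, 6.22 and 7.64. In 3 of 4 NaPB livers Crp lay above all controls, and in liver 3 below them. The difference was 0.21 ± 0.11 (95% confidence interval -0.04 to 0.47, adjusted p = 0.265).

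Socs3 (NM_053565) encodes the feedback inhibitor that Stat3 induces and that blocks Jak kinases at the IL-6 receptor. Controls were at 0.214, 0.163, 0.194 and 0.128, and NaPB livers at 0.160, 0.129, 0.111 and 0.0778. NaPB livers 3 and 4 lay below all controls, and livers 1 and 2 overlapped with the lower controls. The difference was -0.58 ± 0.23 (95% confidence interval -1.10 to -0.05, unadjusted p = 0.0361) and did not pass over all genes (adjusted p = 0.153, limma). Its features differed more from each other than those of the other genes, at -0.75 and -0.40.

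**Figure D3:**
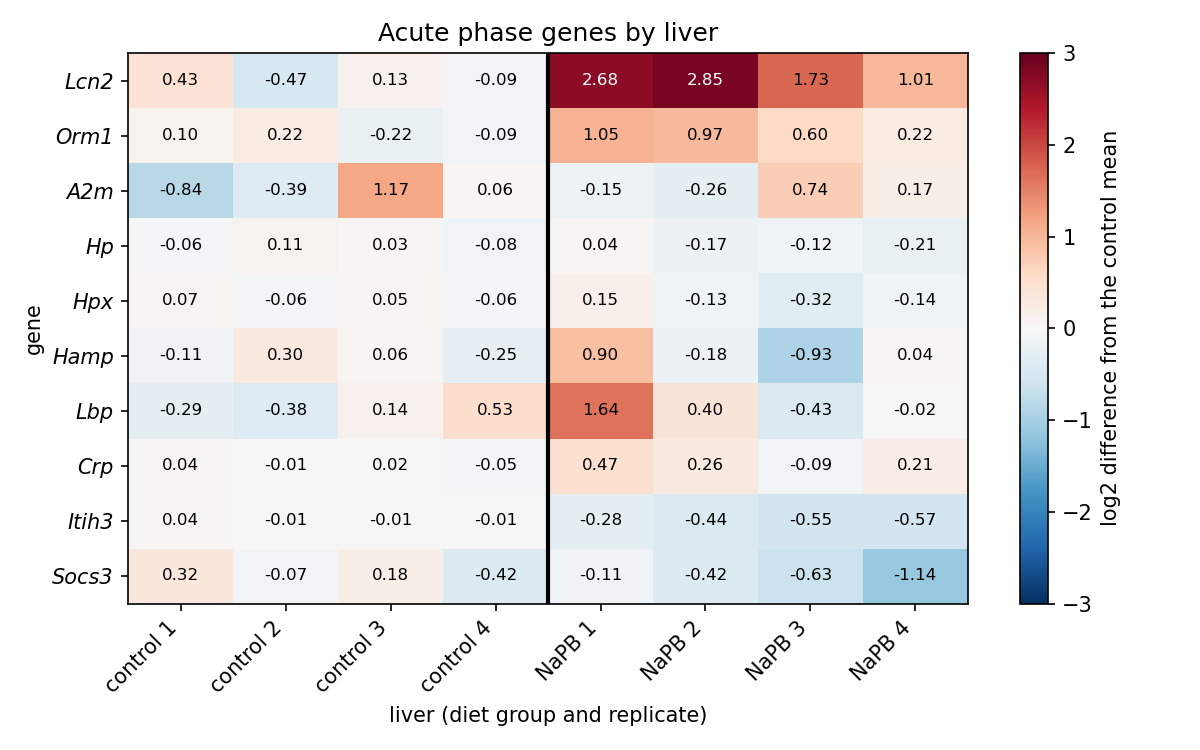
Log2 difference of each liver from the control mean for the 10 genes (rows), with controls left and NaPB livers right of the line, red above and blue below the control mean. NaPB liver 1 is at 0.90 for Hamp and 1.64 for Lbp, and NaPB liver 3 at -0.93 and -0.43.

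The NaPB livers did not share 1 profile. Lcn2 and Orm1 were high in NaPB livers 1 and 2, lower in liver 3 and lowest in liver 4. Hamp, Lbp, Hpx and Crp were highest in NaPB liver 1 and lowest in liver 3, whereas A2m was highest in liver 3. Hp, Itih3 and Socs3 were highest in NaPB liver 1 and lowest in liver 4.

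For 8 of the 10 genes NaPB liver 1 held the highest value of its group, the exceptions being Lcn2 and A2m. Among all tested genes with 4 distinct values in the NaPB group this liver was highest in 25.2% of 10707. Genes in a liver are not independent, so these shares are a description of the animals. NaPB liver 4 was lowest for 5 of the 10 genes and NaPB liver 3 for 4. Among controls, too, liver 1 was most often highest, for 5 of the 10 genes, and liver 4 most often lowest, for 6. Of all genes 24.3% were highest in control liver 1 and 33.3% lowest in control liver 4. The shared numbers do not pair animals across groups.

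**Figure D4:**
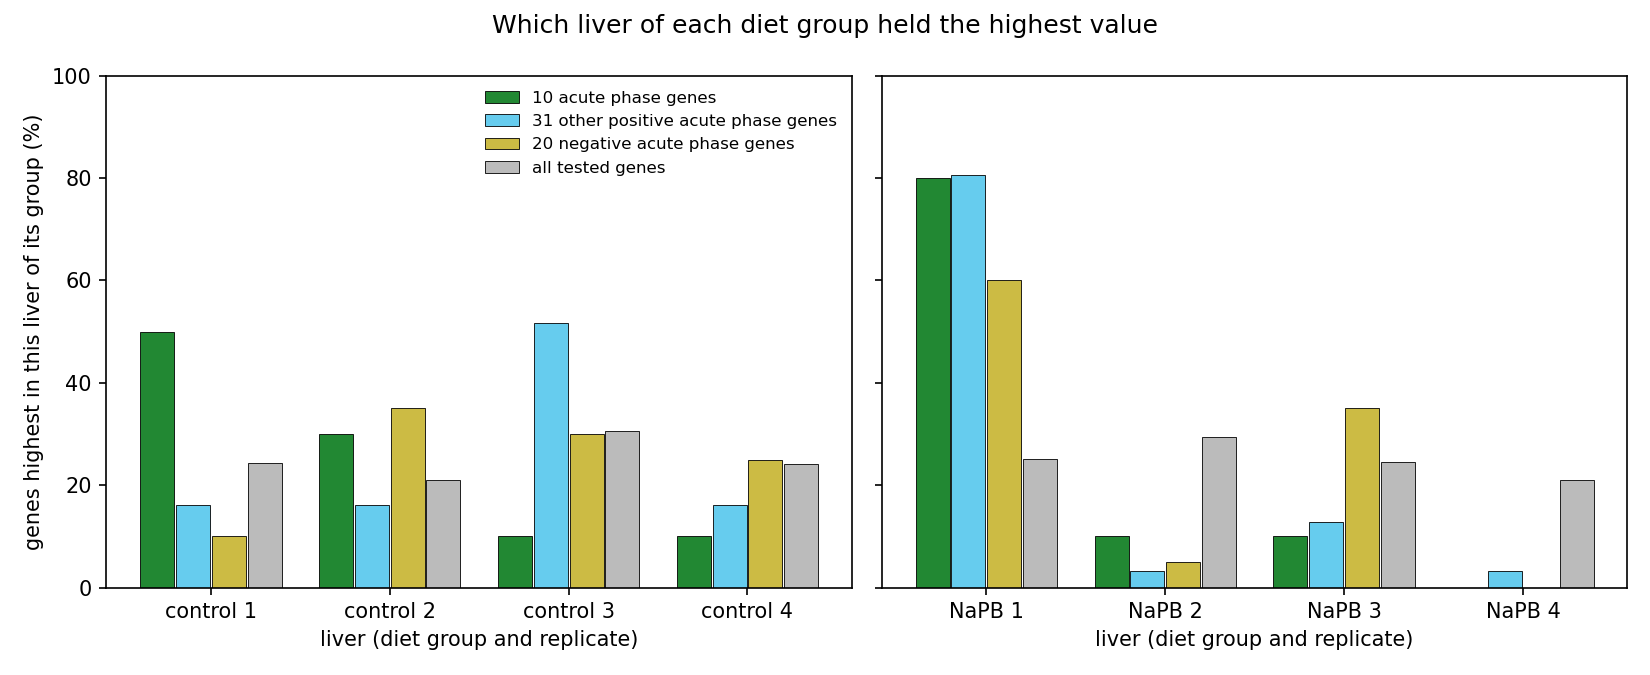
Share of genes (%) whose highest value within a diet group fell in each liver, for the 10 acute phase genes, 31 other positive and 20 negative acute phase genes and all tested genes (bars). In NaPB liver 1 the bars reach 80%, 80.6%, 60% and 25.2% in this order.

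The spread between animals was wider with NaPB for 9 of the 10 genes, A2m being the exception, beside 55.7% of all tested genes. Lbp had an SD of 0.89 among NaPB livers and 0.42 among controls, Lcn2 0.86 and 0.38, and Hamp 0.75 and 0.24. The median SD of all tested genes was 0.15 with NaPB and 0.14 in controls. Of the 10 genes 5 exceeded the 90th percentile of 0.39 with NaPB and 3 the 90th percentile of 0.34 in controls. No test of the spreads was made.

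**Figure D5:**
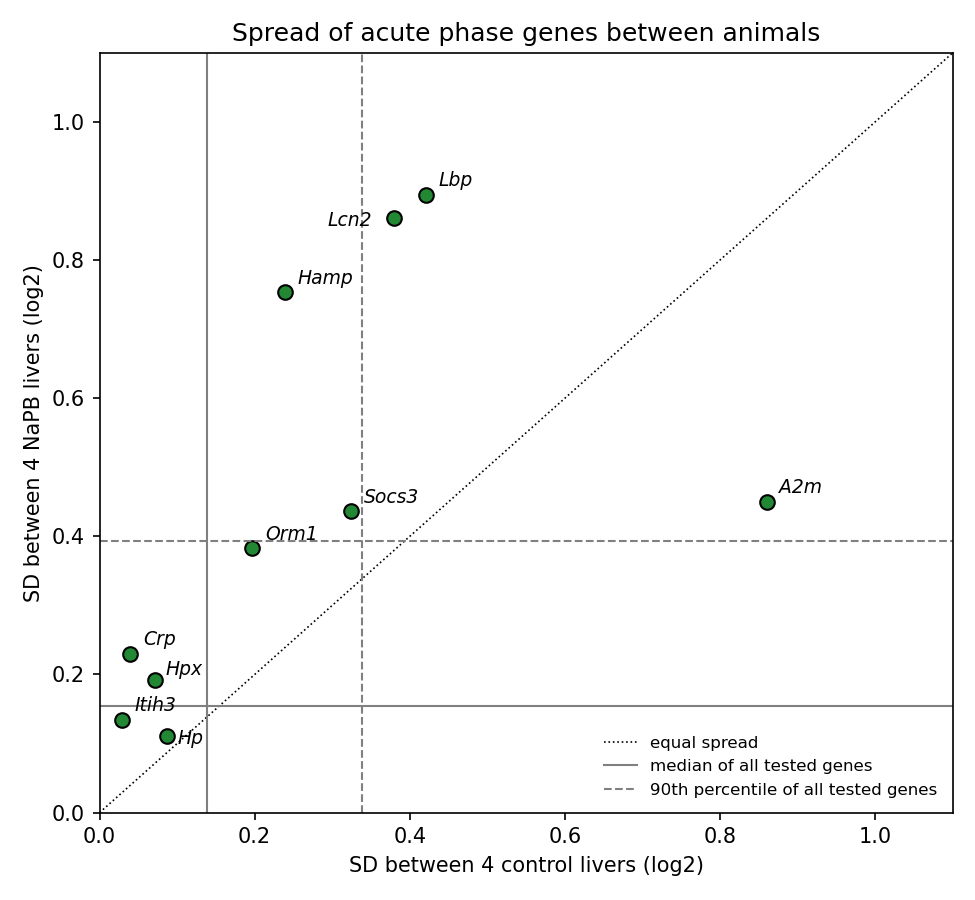
SD between the 4 control livers (horizontal) and between the 4 NaPB livers (vertical) for the 10 genes, on the log2 scale, with the median (solid) and 90th percentile (dashed) of all tested genes and the line of equal spread (dotted). Lbp, Lcn2 and Hamp lie far above the dotted line, and A2m below it at 0.86 and 0.45.

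Other positive acute phase genes showed few calls. Of 31 measured, 2 rose and none fell in limma, or 6.45% beside 10.5% of all tested genes, and at an unadjusted p under 0.05, 4 were higher and 8 lower (12.9% and 25.8%, beside 14.3% and 12.5% of all tested genes). With arrays at the same median 2 were called higher and 3 lower, where 4.89% and 6.95% of all genes were. Their median log2 difference was -0.18. Both that rose were metallothioneins, which bind zinc and copper: Mt2A rose by 1.95 ± 0.40 (adjusted p = 0.0185) and Mt1a by 1.59 ± 0.41 (adjusted p = 0.0407). Control liver 4 was the highest control for both, at 39.3 for Mt2A and 122 for Mt1a, and for Mt1a it lay above the 113 of NaPB liver 4. The call of Mt1a was lost without any 1 array other than control replicate 4 (adjusted p up to 0.0952) and with every named gene tested (0.140), as was that of Mt2A (0.0788).

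In this list too NaPB liver 1 stood highest, for 25 of 31 genes, and NaPB liver 4 lowest for 20. The fibrinogen chains, clotting proteins named here after their values were seen, show it. Fgg was at 239 in NaPB liver 1 and 165 to 175 in livers 2 to 4, with controls at 223 to 241. Fga was at 205 in NaPB liver 1 and 132 to 157 in the others, with controls at 187 to 209. Over all arrays Fga, Fgb and Fgg were at -0.36, -0.35 and -0.33 and did not pass (adjusted p = 0.128, 0.262 and 0.120). Without NaPB replicate 1 they were at -0.49, -0.55 and -0.46 and passed (adjusted p = 0.0194, 0.0185 and 0.0117), as did the complement genes C4bpb at -0.60 and C9 at -0.41. The list then counted 1 higher and 5 lower, in place of 2 and 0, where 4.64% and 3.3% of all genes were. NaPB liver 1 was the highest of its group for most of this list, so leaving it out favoured lower values. The list counted 1 higher and 0 lower without control replicate 1 or 2 or NaPB replicate 4. In these runs 3.55% to 4.83% of all genes were higher and 2.22% to 2.62% lower.

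Of 20 measured negative acute phase genes 3 fell and none rose, or 15% called beside 10.5% of all tested genes, with a median of -0.11. Fetub and Ahsg, the fetuins, fell by 0.59 ± 0.09 and 0.48 ± 0.09 (adjusted p = 0.00673 and 0.012), and Itih1, another heavy chain of inter-alpha-trypsin inhibitor named here because it completed the count, fell by 0.47 ± 0.07 (adjusted p = 0.00509). Fetub was at 75.7 to 95.3 in controls and 51.4 to 60.7 with NaPB. The 3 calls held without each array in turn. Alb, serum albumin, did not pass, with a difference of -0.13 ± 0.08 (adjusted p = 0.3). At an unadjusted p under 0.05, 0 of the 20 were higher and 8 lower (40%), beside 14.3% and 12.5% of all tested genes. With arrays at the same median 5 were called lower, where 6.95% of all genes were.

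On the IL-6 side, 27 of 35 listed genes were tested, with 1 higher and 2 lower and a median of -0.16. The share called was 11.1%, beside 10.5% of all tested genes. At an unadjusted p under 0.05 in limma 3.7% were higher and 25.9% lower, beside 14.3% and 12.5% of all tested genes. Il6 itself lay at the floor in all 8 livers, as did Socs1 and the receptor gene Il22ra1, and Osmr lay at or near it. Il6r, the IL-6 receptor, was at 1.34 to 2.13 in controls and 0.987 to 1.31 with NaPB. The groups did not overlap, yet the difference of -0.53 ± 0.16 did not pass (adjusted p = 0.0657). It passed with arrays at the same median (0.0437). Jak1 was likewise lower in every NaPB liver, at 1.67 to 1.82 against 1.92 to 2.01, without passing (-0.18 ± 0.07, adjusted p = 0.111), except with every named gene tested (0.0346).

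Stat3 was at -0.31 ± 0.17 (adjusted p = 0.269) and Il6st at -0.03 ± 0.08 (adjusted p = 0.868), with 8 of its 12 control feature values at the floor. The C/EBP genes Cebpb and Cebpd were at 0.04 ± 0.16, with the sign turned when arrays were at the same median (-0.018), and at -0.42 ± 0.18, and did not pass (adjusted p = 0.89 and 0.173). Those that passed were Hnf4a, a hepatocyte transcription factor, which rose by 0.57 ± 0.10 (adjusted p = 0.0123), Pim3, a kinase that Stat3 can induce, which fell by 0.64 ± 0.12 (adjusted p = 0.0149), and the adaptor Grb2, which fell by 0.30 ± 0.07 (adjusted p = 0.0338). The call of Grb2 was lost without any 1 array other than NaPB replicate 2 (adjusted p up to 0.0941) and with its brightest feature (-0.15, adjusted p = 0.262).

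In the IL-1, TNF and NF-kB pathway 2 of 30 tested genes rose and 2 fell, with a median of 0.04. The share called was 13.3%, beside 10.5% of all tested genes. At an unadjusted p under 0.05 in limma 16.7% were higher and 13.3% lower, beside 14.3% and 12.5% of all tested genes. Nfkbiz, a nuclear cofactor of NF-kB that IL-1 induces, fell by 1.31 ± 0.23 (adjusted p = 0.01), from 0.170 to 0.272 in controls down to 0.0618 to 0.120 with NaPB. It passed under every alternative run. The TNF receptor gene Tnfrsf1b fell by 0.49 ± 0.12 (adjusted p = 0.0356), and Tnip1 and Nfkb2 rose by 0.35 ± 0.09 and 0.33 ± 0.08 (adjusted p = 0.0428 and 0.0319). Each of these 3 lost its call without several single arrays, with adjusted p up to 0.0941, 0.110 and 0.0766. With arrays at the same median neither Tnip1 nor Nfkb2 passed (adjusted p = 0.0717 and 0.0807), and Nfkb2 was at 0.17 with its brightest feature (adjusted p = 0.332). Without control replicate 2 or NaPB replicate 2 or 4 Nfkbiz alone was called in this list, and 2 genes were called without control replicate 1 or 3 or NaPB replicate 3. In these runs 3.55% to 5.15% of all genes were higher and 2.22% to 3.26% lower. Nfkbia, the inhibitor that NF-kB induces, was at 0.08 ± 0.09 (adjusted p = 0.595).

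Of 23 tested regulators of hepcidin and iron 1 rose and none fell (4.35%, beside 10.5% of all tested genes), with a median of -0.0065. Hfe, an iron sensor that promotes hepcidin expression, rose by 0.52 ± 0.08 (adjusted p = 0.00433), from 0.433 to 0.488 in controls to 0.600 to 0.677 with NaPB, and passed under every alternative run. Bmp6, the bone morphogenetic protein that drives hepcidin, lay at the floor in all livers. Tfr2, the transferrin sensor of hepatocytes, was at -0.29 ± 0.25 (adjusted p = 0.491). As with Hamp, its highest value was in NaPB liver 1, at 5.07, and its lowest in NaPB liver 3, at 2.05, with controls at 4.00 to 4.95. Without NaPB replicate 3 the list counted 2 genes higher, where 5.15% of all genes were.

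The genes whose centred log2 values over the 8 livers lay nearest to those of Lcn2 were Ston1, Ndc80 and Cenpt, at root mean square differences of 0.391, 0.398 and 0.404. All 3 were dim: Ndc80 and Cenpt lay at the floor in all controls and rose with NaPB to levels at least 3.67-fold (Ndc80) and at least 3.33-fold (Cenpt) above it. With a floor of 0.1 neither Ston1 nor Ndc80 passed and Cenpt was not tested. Nearest to Orm1 were Npas1, Oprk1 and Rad18, at 0.131, 0.144 and 0.145, all within reach of the floor in controls. The likeness among controls therefore rests on floor values for most of these genes.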

How the data were processed

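The authors deposited 1 table of Cy3 spot intensity for all 8 arrays. Its values are linear and positive and seem divided by 1 factor per array, since upper quartiles nearly match. Per the submitters' processing notes, the image reader was Agilent Feature Extraction 10.7. No source used here gives how background, flags and scaling were handled. Of 62976 features, 45904 had 1 gene symbol. Arrays were scaled to the 75th percentile of these features (1.08 to 1.09), floored at 0.03 and log2-transformed, and features were averaged by gene. A gene entered the test if 3 or more arrays of either group exceeded the floor (10944 of 16945).

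The diets were compared with limma 3.58.1 (lmFit, eBayes, two-sided) in R 4.3.3, adjusting by Benjamini-Hochberg across all genes, and likewise across features. On simulated data for these 10944 genes, 85% of changes of 1 and 51% of changes of 0.5 (log2) were recovered, with 5 false calls. The simulation drew independent normal noise with 1 SD per gene for both groups and changed 200 genes. These shares are averages over genes and do not give the recovery for genes of wide spread, such as Lbp, Hamp and A2m. Python 3.11.15 and matplotlib 3.10.9 drew the figures. The number of arrays limits the precision. Batches were not tested, and replicate numbers name different animals.

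The acute phase genes and the lists were chosen with earlier results of these data known, and the lists come from general knowledge. Named are all 10 genes, up to 2 rises and 2 falls past the threshold per list (or the largest difference where none passed), a fixed set of pathway genes and the 3 nearest patterns of 2 genes. Of the 10 symbols, 8 are in the reference gene table, Rattus rattus. No sequences were used here. Alternatives were other scalings, another floor, other filters, the brightest feature, a replicate block, another variance prior and leaving out each array.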

Additional observations from a re-analysis of the deposited data

Results flagged for a closer look

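Of 76 groups of 4 livers checked over 38 genes, 1 held a liver far from the other 3, while chance flags about 1 in 20. Itih3 in control liver 1 was at a scaled intensity of 183, with the nearest control at 176, a gap that took up 98.8% of the control range. That range was 1.04-fold, and all NaPB livers lay below it.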

How the results depend on the processing

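Itih3, Fetub, Pim3, Nfkbiz, Hfe and Cyp2b2 kept direction and call under all 17 alternatives. Over the named genes, 544 single values kept direction and call, 72 lost a call, 5 gained one and 11 turned sign, none of the last being a called gene. The cause of the changes below was not tested, except that testing every named gene adds 6001 genes at or near the floor.

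With every named gene tested, 739 of 16945 genes were called in place of 1144 of 10944. Of all genes 2.72% were then higher and 1.64% lower, in place of 6.16% and 4.29%. The counts were then 1 of the 10 acute phase genes in place of 3 and 2 of their 29 features in place of 5. Of the 31 other positive genes 0 were called in place of 2, and of the NF-kB pathway 2 in place of 4. At an unadjusted p under 0.05 in limma 12 of the other positive genes passed, beside 2989 of all 16945 genes. With arrays at the same median 5 other positive, 5 negative (in place of 3) and 2 NF-kB pathway genes were called, and Cebpb was at -0.018. Of all genes 4.89% were then higher and 6.95% lower. After quantile normalization 2 iron regulators were called in place of 1, where 5.77% of all genes were higher and 5.74% lower. With the brightest feature 2 NF-kB pathway genes were called, where 5.11% of all genes were higher and 3.72% lower.

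The replicate block gave 583 genes, or 3.23% of all tested genes higher and 2.09% lower. This block gave 0 other positive acute phase genes and 2 NF-kB pathway genes. At an unadjusted p under 0.05 in limma 10 other positive genes passed, beside 2617 of all 10944 genes. Socs3 (adjusted p = 0.0456) and Il6r (0.0399) passed under the block, and Mt2A (0.0593), Mt1a (0.105), Ahsg (0.0541), Hnf4a (0.0542), Grb2 (0.104), Tnip1 (0.111), Nfkb2 (0.104) and Npas1 (0.0514) did not. Same-numbered livers correlated in their deviations at 0.0762, 0.0608, -0.128 and -0.0684, and the numbers name different animals, so the pairing has no basis in the design.

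Leaving out 1 array gave 625 to 980 called genes, or 3.55% to 5.15% of all tested genes higher and 2.22% to 3.93% lower. It gave 2 to 3 of the acute phase genes, 2 to 5 of their features, 1 to 6 other positive, 3 negative, 2 to 4 IL-6 pathway, 1 to 3 NF-kB pathway and 1 to 2 iron genes. It turned the sign of A2m (-0.16 to 0.51 over these arrays), Hamp (-0.36 to 0.25), Lbp (-0.017 to 0.67), Il6st (-0.092 to 0.0061) and Cebpb (-0.087 to 0.19). The low count of 625 was without control replicate 2, and 698 without control replicate 1. With a floor of 0.1, Ston1 (0.37) and Ndc80 (0.28) did not pass, and Cenpt, Npas1 and Rad18 were not tested. Dim genes near the floor, Il6 and Bmp6 among them, are not measured here.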
